A study of Mus musculus with 2 samples.

Results

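Hedgehog signalling and primary cilium genes, 50 in all, were followed in luminal cells sorted from mouse mammary gland whose miR-200c/141 cluster was intact or deleted. They are the 50 of 16906 genes in the deposited table whose symbol names an intraflagellar transport (IFT), Bardet-Biedl (BBS), tectonic, TTC21, TTC30, GLI or PTCH gene, together with 16 named regulators from Smo to Ttbk2. The Ctrl group, miR-200c/141-flox/flox, carried the floxed cluster without Cre. CKO mice were K8-CreERT2;miR-200c/141-flox/flox, in which the keratin 8 promoter drives a tamoxifen-inducible Cre recombinase in luminal cells. Both groups were C57BL/6 mice, 8 weeks old, and both received tamoxifen. Cre was carried by the CKO mice alone, so its effects and those of the deletion cannot be told apart. The interval after tamoxifen is 4 weeks in one label and 3 days in another. Each group is 1 library from about 20000 sorted cells, the number of mice is not given, and how many cells had lost the cluster was not analysed here. With 1 library per group no difference below has a replicate check, and none was tested.

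Hedgehog ligands bind the receptor Patched, which otherwise holds the membrane protein Smoothened inactive. Active Smoothened gathers in the primary cilium, the antenna of the cell surface, and releases GLI transcription factors from the inhibitor SUFU. The cilium is built by IFT trains, IFT-B moving cargo towards the tip and IFT-A returning it, while the BBSome carries membrane receptors and the transition zone gates the base. In the mammary gland primary cilia have been described on epithelial and stromal cells.

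The deleted microRNAs act through their seed, bases 2 to 8, given in capitals in the mature mouse sequences (RefSeq, GRCm38.p6, chromosome 6, minus strand, chr6:124718324-124718346 for miR-200c-3p and chr6:124717917-124717938 for miR-141-3p). They are shown because their seeds differ at a single base and define the sites searched in the members.
miR-200c-3p: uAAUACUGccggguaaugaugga
miR-141-3p: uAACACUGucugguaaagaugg
A match to either seed, CAGTATT or CAGTGTT on the sense strand, lay in the longest annotated 3' UTR (GENCODE M21, GRCm38) of 17 of the 49 members with a UTR of at least 30 bases, or 34.7%. Over all 16172 genes with such a UTR the share was 28%. The median UTR was 781 bases long in the members and 1096 bases in all genes. The receptor gene Ptch1, the transducer gene Smo, the effector genes Gli2 and Gli3, and the lower members Gpc2 and Rpgr each held at least 1 match, shown in capitals within 26 bases of the UTR.
Ptch1: gtatgttttaaCAGTGTTaggagagt
Smo: agtctgactggCAGTGTTagtctccg
Gli2: tggcctgtttaCAGTGTTctgaggta
Gli3 (miR-141-3p): ttatgaacattCAGTGTTatttagca
Gli3 (miR-200c-3p): tcagtttgaatCAGTATTgtgacatt
Gpc2: acttcatatttCAGTGTTcatatcag
Rpgr: ttacaactgctCAGTGTTgcataaaa
These matches stand at chr13:63508494-63508500 for Ptch1 and chr6:29760539-29760545 for Smo. Those of Gli2 and Gpc2 are at chr1:118835078-118835084 and chr5:138273700-138273706, and that of Rpgr at chrX:10158431-10158437. Gli3 holds them at chr13:15727550-15727556 and chr13:15726981-15726987, and every site listed is in the last exon of its transcript. Gpr161, which encodes a ciliary receptor that restrains the pathway, held the most matches among the members, 5 for miR-200c-3p and 1 for miR-141-3p in a UTR of 5044 bases. It had 0.39 FPKM in Ctrl and 0.43 in CKO. FPKM are fragments scaled to gene length and to library size, so levels can be compared between genes.

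The members with a seed match did not lie higher in CKO than those without one. Ratios here are log2 of CKO over Ctrl with 0.5 FPKM added to each value, and genes whose mean reached 1 FPKM count as measured. Of the 14 measured members with a match 12 were below 0, and their median was -0.31. Of the 26 without one 19 were below 0, and their median was -0.23. Hhipl2 had no match. Over all measured genes the medians were -0.08 for the 3424 with a match and -0.01 for the 8018 without. The lengths of genes with and without a match were not compared, and the ratio fell with gene length, as given below. Smo and Ift20, each with 1 match, had log2 ratios of 0.02 and 0.11, whereas Gpc2 and Rpgr, each with 1 match, were at -0.66 and -0.62.

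The X-box is the element through which RFX factors drive ciliary genes, and its letters were sought in the promoters of the members. RefSeq promoter windows of 300 bases, from 250 before to 50 after a start site, were matched for 44 members; those without a match include Gli1, Ift122, Ift80, Ift81 and Ttc30b. The hexamer GTTGCC, sought on both strands, was in 16 of these 44 genes (36.4%) and in 15 of the 33 ciliary ones (45.5%), against 14.1% of all 27025 genes with a window and 14.8% of measured genes. A longer form, GTTNCC and GGNAAC separated by 1 to 3 bases, was in 4 members (9.09%) and in 0.903% of all genes. It overlaps the hexamer in all 4 members, whose sequences follow. The search itself fixed most of the letters in capitals, so their likeness is not a result.
Bbs7: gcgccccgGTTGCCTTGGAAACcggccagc
Tctn1: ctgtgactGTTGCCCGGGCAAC
Tctn3: tcccagcgGTTGCCAGGTAACgggaacca
Ift57: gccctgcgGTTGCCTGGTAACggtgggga
The capitals mark the match. On GRCm38.p6 these stretches are chr3:36613489-36613518, chr5:122264411-122264432 and chr19:40612351-40612379, all on the minus strand, and chr16:49699226-49699254 on the plus strand. Among measured members the median ratio was -0.30 for the 14 with the hexamer and -0.12 for the 23 without it. Nearly all genes with the hexamer are ciliary. Measured ciliary members had a median of -0.26 and Hedgehog ones of -0.09, and the part of the hexamer was not tested. The GLI motif GACCACCCA, sought on both strands, was in 0 of the 44 and in 0.289% of all genes with a window. Hhipl2, the member with the largest difference, has 2 such windows, both on the plus strand, at chr1:183418220-183418519 and chr1:183418998-183419297. Both lie inside the annotated span of the gene, which begins at chr1:183414463, and neither window covers that end. The 50 bases after each start are in capitals.
Hhipl2 (first start): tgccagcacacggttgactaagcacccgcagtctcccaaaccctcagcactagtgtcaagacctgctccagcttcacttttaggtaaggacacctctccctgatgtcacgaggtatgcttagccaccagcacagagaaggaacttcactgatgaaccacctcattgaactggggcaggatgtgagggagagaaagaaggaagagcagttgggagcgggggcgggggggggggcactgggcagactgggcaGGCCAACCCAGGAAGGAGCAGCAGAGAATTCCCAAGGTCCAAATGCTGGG
Hhipl2 (second start): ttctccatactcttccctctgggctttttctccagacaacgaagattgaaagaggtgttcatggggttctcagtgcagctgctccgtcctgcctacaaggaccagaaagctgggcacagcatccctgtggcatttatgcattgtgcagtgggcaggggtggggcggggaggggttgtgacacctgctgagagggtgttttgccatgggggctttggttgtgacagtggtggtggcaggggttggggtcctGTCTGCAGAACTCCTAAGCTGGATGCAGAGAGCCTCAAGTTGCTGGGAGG

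The libraries held about 12500000 reads in Ctrl and 11400000 in CKO, estimated from the authors' p-values, and 16204 and 16000 genes above the floor of 0.01 FPKM. The members were moderately expressed. Their median was 5.46 FPKM in Ctrl and 4.33 in CKO, beside 5.48 and 5.12 over all genes. In Ctrl 12 members stood at 10 FPKM or more, 28 between 1 and 10, and 10 under 1, and in CKO these numbers were 10, 31 and 9. Ift43 was the highest in both libraries, at 59.37 FPKM in Ctrl and 70.02 in CKO. Of the 50 members 41 were measured and 9 were not, among them Gli1, Gli2, Hhip, Gpr161, Ttc21a, Ttc30a1, Bbs7 and Bbs10.

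**Figure D1:**
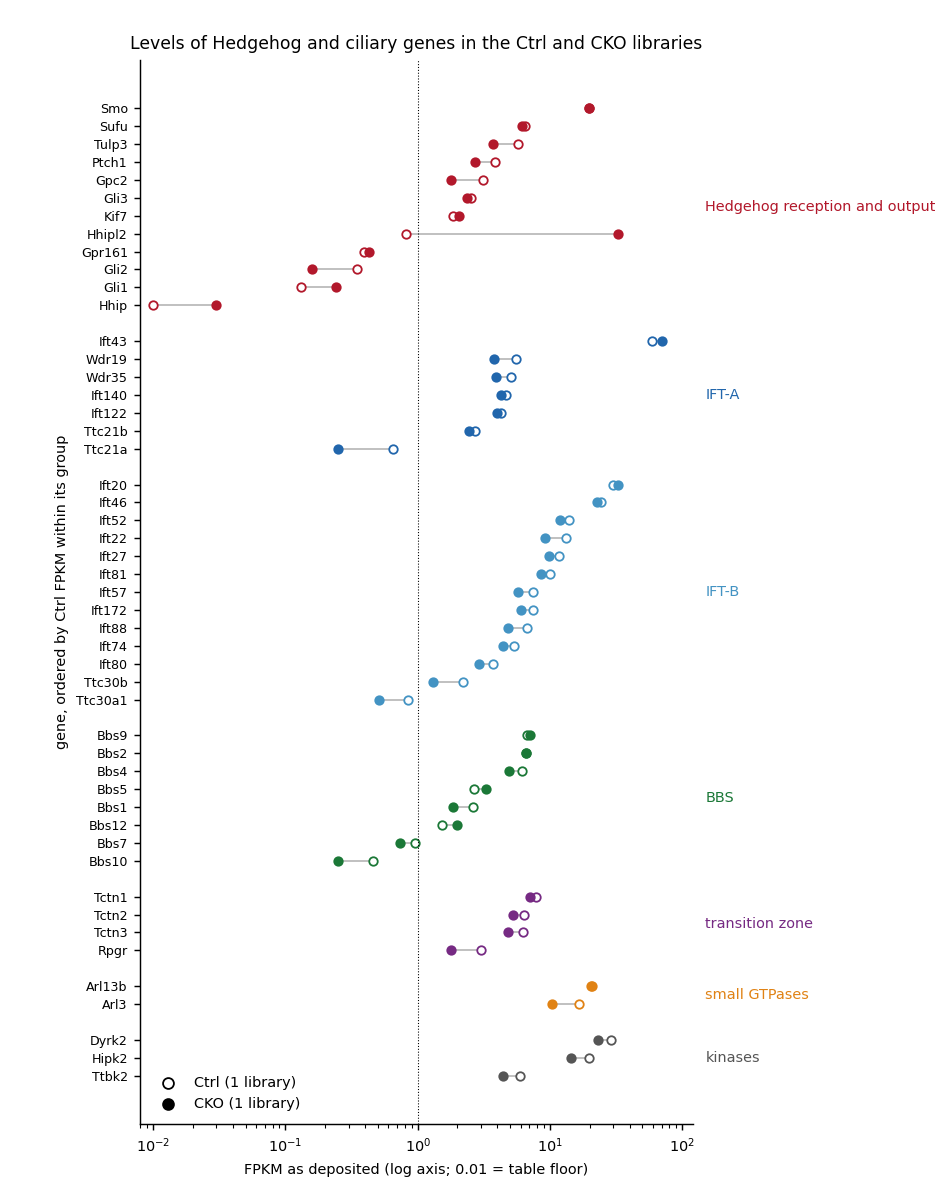
FPKM of 49 of the 50 genes on a log axis, with Ctrl as open and CKO as filled circles (1 library each) and the genes grouped by role. Most filled circles lie slightly left of the open ones, and Hhipl2 stands apart, with 0.82 FPKM as its open and 32.75 as its filled circle.

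Hhipl2, a secreted relative of the Hedgehog-binding protein HHIP whose own function is less well known, was the member with the largest ratio. Its level was 0.82 FPKM in Ctrl against 32.75 in CKO, 39.9-fold higher in the CKO library. From rank 43 of the 50 members in Ctrl it stood at rank 2 in CKO, and its percentile among all genes was 29.1 and 85.3. About 27 and 977 reads lay behind these values. The 95% Clopper-Pearson interval of the log2 read ratio was 4.75 to 5.91; it covers counting error only and is computed without the added 0.5 FPKM, which is why the printed log2 ratio of 4.65 lies below it. In the authors' deposited table the false discovery rate of Hhipl2 was 8.1e-263, from a test of 1 library against the other. In bulk RNA, more or fewer cells of a type cannot be told apart from more or less RNA per cell.

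Hhipl2 (Entrez gene 78772) lies at chr1:183414463-183437053 (GRCm38.p6). It was the single member called by the 2-fold rule, which asks for a 2-fold ratio and 5 FPKM or more in whichever library is higher. By that rule 1 of 28 members was higher and 0 lower, where 0.654% and 0.349% of all 8870 genes tested were called. The authors' table calls it up and calls no other member, with 0.615% of its genes up and 0.639% down. The members were chosen by symbol with both expression columns of this table known, so these counts describe them and support nothing.

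Hhip and Ptch1 both hold the pathway in check, and their levels were far apart. Hhip, which binds and sequesters Hedgehog ligands, was at the table floor of 0.01 FPKM in Ctrl and at 0.03 in CKO, or 0 and 2 reads, too few for a ratio. Ptch1, the receptor gene and itself a target of the pathway, had 3.85 FPKM in Ctrl and 2.72 in CKO, for a log2 ratio of -0.43 (interval -0.77 to -0.24). The interval of Ptch1 excluded equal levels.

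Smo, the signal transducer of the pathway, was the most abundant Hedgehog member in Ctrl, at 19.64 FPKM, and stood at 19.88 in CKO. Its interval of -0.12 to 0.15 on the log2 scale bounds the difference that counting error allows between these libraries. Sufu, the GLI inhibitor, was at 6.47 and 6.10 FPKM (-0.31 to 0.14). Kif7, the kinesin that organizes GLI and SUFU at the ciliary tip, was at 1.85 and 2.05 FPKM.

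GLI factors were at low levels. Gli3, mainly a repressor, was the highest of the 3 at 2.55 FPKM in Ctrl and 2.36 in CKO, with an interval of -0.39 to 0.16. Gli2, mainly an activator, was at 0.35 and 0.16 FPKM from 28 and 12 reads, an interval of -2.21 to -0.07. Gli1, an activator whose transcription reports pathway activity, was at 0.13 and 0.24 FPKM from 6 and 10 reads, and its interval of -0.74 to 2.61 held 0, so that a difference was not detectable at this depth. Of the pathway's own feedback targets Gli1, Ptch1 and Hhip, Ptch1 alone reached a mean of 1 FPKM.

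Regulators that act at the cilium were lower in CKO or had intervals that held 0. Tulp3, which brings receptors such as GPR161 into the cilium with IFT-A, had 5.70 FPKM in Ctrl and 3.68 in CKO, a log2 ratio of -0.57 (-0.94 to -0.33). Its deposited p-value implies a smaller log2 read ratio, of -0.25, so the FPKM and the authors' test differ for this gene. Gpr161 had 33 reads in both libraries. Gpc2, a glypican of the cell surface, was at 3.12 and 1.79 FPKM, 1.74-fold lower, with a log2 ratio of -0.66 (-1.32 to -0.30) from 97 and 51 reads. Gpc2 lies wholly within the annotated span of Stag3, and how reads of overlapping genes were assigned is not given in the sources used here.

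**Figure D2:**
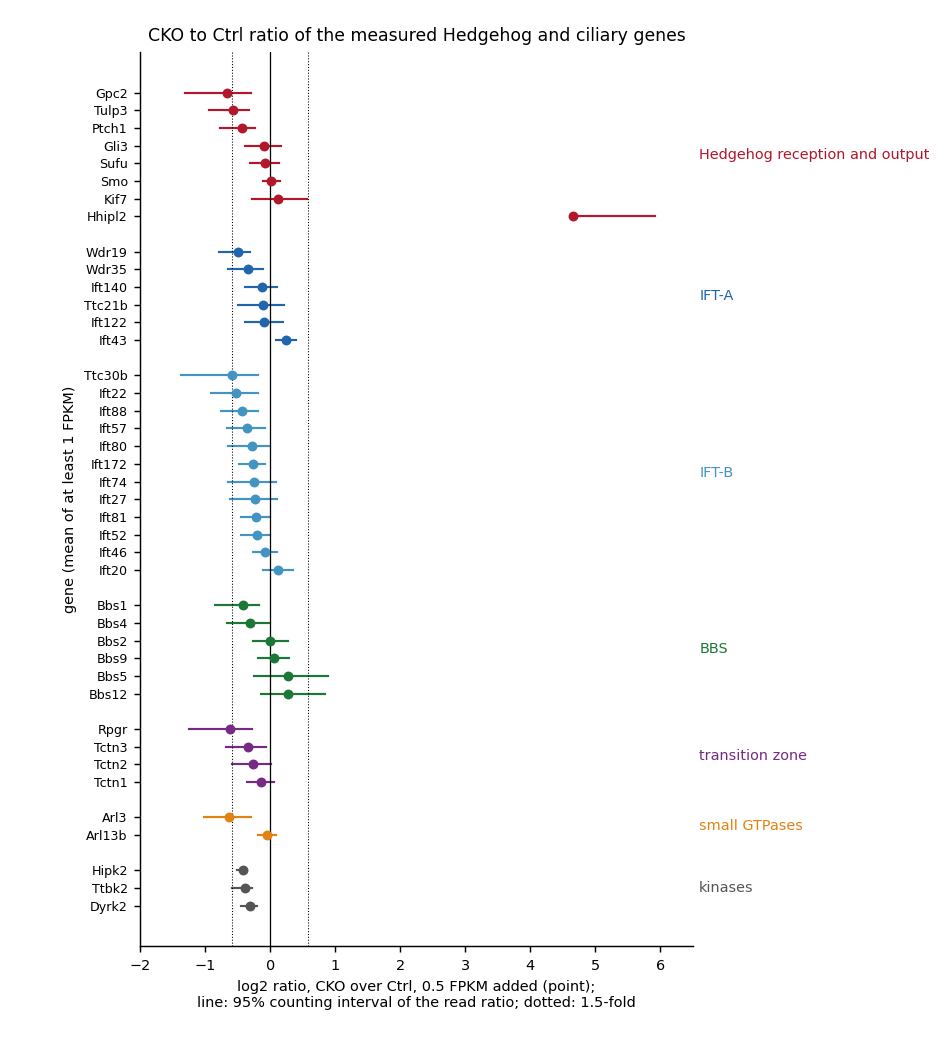
Log2 ratio of CKO over Ctrl with 0.5 FPKM added (points) and 95% counting interval of the read ratio (lines) for the 41 measured genes, by role; dotted lines mark 1.5-fold. Points of IFT-B, the transition zone and the kinases lie mostly between -0.62 and 0, those of BBS on both sides, and Hhipl2 at 4.65.

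IFT-B genes lay almost entirely on the side of Ctrl. Of 12 measured genes 11 were below 0 and 6 had intervals wholly below it, with a median of -0.25. Over all measured genes 54.8% were below 0, 23.6% had intervals wholly below it, and the median was -0.03. Ift20, the most abundant, links the train to Golgi vesicles and was the exception at 30.08 FPKM in Ctrl and 32.60 in CKO. Ift88, whose loss blocks cilium assembly, was at 6.76 and 4.86 FPKM, giving a log2 ratio of -0.44 (-0.76 to -0.19). Ift22, a small GTPase-like subunit, was at 13.34 and 9.13 FPKM, giving a log2 ratio of -0.52.

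Ttc30b had the lowest ratio of the group, at 2.22 FPKM in Ctrl and 1.30 in CKO, 1.71-fold lower from 73 and 39 reads. It and Ttc30a1, at 0.84 and 0.51 FPKM, are near-identical neighbours that both encode IFT70, so the division of reads between them is uncertain. The remaining genes ran from -0.35 for Ift57, a peripheral subunit, to -0.08 for Ift46, with Ift80, Ift172, Ift74, Ift27, Ift81 and Ift52 between them. All 8 measured genes of the core (IFT-B1) were below 0, with a median of -0.25. In the peripheral part (IFT-B2) it was 3 of 4, with a median of -0.27. The summed FPKM of the 13 IFT-B genes was 137.02 in Ctrl and 120.78 in CKO.

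IFT-A genes were split by their most abundant member. Ift43, a small subunit of the complex, was at 59.37 and 70.02 FPKM, or 0.24 on the log2 scale (0.09 to 0.39). By the deposited p-value its log2 read ratio would be 0.14. All 5 other measured genes were below 0. Wdr19, which encodes the IFT144 subunit, had 5.57 FPKM in Ctrl and 3.80 in CKO, a log2 ratio of -0.50 (-0.79 to -0.32), and its partner Wdr35 was at 5.09 and 3.91 (-0.66 to -0.11). Ift140, Ttc21b and Ift122 had log2 ratios between -0.13 and -0.09 with intervals that held 0. Ttc21a, a paralog of Ttc21b, was not measured by its mean and stood at 0.65 and 0.25 FPKM from 34 and 12 reads.

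BBS genes went both ways. Of 6 measured genes 2 were below 0 and 4 above, with a median of 0.03. Bbs9 was the most abundant by its mean, with 6.75 FPKM in Ctrl against 7.01 in CKO, and Bbs2 was nearly equal at 6.55 and 6.56; both encode core subunits of the BBSome. Bbs1, the BBSome subunit that ARL6 contacts, was at 2.62 and 1.84 FPKM, giving a log2 ratio of -0.42 (-0.85 to -0.17), and Bbs4 at 6.20 and 4.91 (-0.66 to -0.01). Bbs12, one of the chaperonin-like BBS genes that assemble the complex, had the highest ratio, 0.28, at 1.54 and 1.97 FPKM. Its deposited p-value implies a log2 read ratio of 0.03. Bbs5 was at 2.66 and 3.31 FPKM with an interval of -0.26 to 0.89, while Bbs7 and Bbs10, under 1 FPKM, had intervals that held 0.

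Genes of the transition zone, the ciliary GTPases and the kinases were all on the side of Ctrl. Rpgr, the retinitis pigmentosa GTPase regulator of the ciliary base, had 3.01 FPKM in Ctrl and 1.79 in CKO, 1.68-fold lower, with a log2 ratio of -0.62 (-1.25 to -0.28). The tectonic genes, which encode proteins of the gate, graded from -0.35 for Tctn3 through -0.26 for Tctn2 to -0.14 for Tctn1, and Tctn1 was the highest at 7.91 and 7.11 FPKM. Only the interval of Tctn3 among the 3 excluded 0.

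Arl3 and Arl13b, a small GTPase and its activator that release lipid-modified cargo in the cilium, differed from each other in ratio. Arl3 had 16.53 FPKM in Ctrl and 10.44 in CKO, 1.58-fold lower, with a log2 ratio of -0.64 (-1.03 to -0.30). Arl13b was at 20.98 and 20.31 FPKM (-0.18 to 0.09). The intervals of the 2 genes did not overlap.

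The kinases had narrow intervals, with 561 to 3366 reads in a library. Hipk2 and Ttbk2 are 13693 and 11131 bases long. Of all measured genes over 6000 bases 84.8% were below 0, with a median of -0.20. Hipk2, which phosphorylates transcription regulators in stress and development, was at 19.70 and 14.55 FPKM from 3366 and 2276 reads, a log2 ratio of -0.42 (-0.51 to -0.36). Ttbk2, which starts cilium assembly at the mother centriole, was at 5.96 and 4.41 FPKM (-0.59 to -0.28). Dyrk2, a kinase that regulates Hedgehog signalling and cilium length, was at 28.74 and 22.98 FPKM (-0.45 to -0.20). For Hipk2 and Dyrk2 the deposited p-values imply smaller log2 read ratios, of -0.29 and -0.19. In the authors' deposited table the false discovery rate was at most 0.001 for Hhipl2, Hipk2, Ttbk2 and Wdr19, or 8% of the members, and for 10.6% of all genes.

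Most measured members had ratios a little below 0, and fewer of them had intervals that excluded it. Of 41 measured members 32 (78%) had a log2 ratio below 0, where 54.8% of all 11667 measured genes did, and the medians were -0.25 and -0.03. The interval lay wholly below 0 for 19 members (46.3%) and for 23.6% of all genes. It lay wholly above 0 for 2 members, Hhipl2 and Ift43, and for 16.5% of all genes. These intervals rest on reads worked back from the FPKM. For Ift43 and Tulp3, both counted here, the deposited p-values imply log2 read ratios closer to equality, of 0.14 and -0.25. A ratio of at least 1.5-fold with an interval that excluded 1 was found for 4 lower members, Gpc2, Arl3, Rpgr and Ttc30b, and 1 higher, Hhipl2. By this rule 3.04% of all measured genes were lower and 2.29% higher. Tulp3 was just outside it at -0.57, and Ttc30b just inside at -0.60. With 1 FPKM added in place of 0.5, the lower count was 1, and with a minimum mean of 5 FPKM it was also 1, in both cases Arl3.

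**Figure D3:**
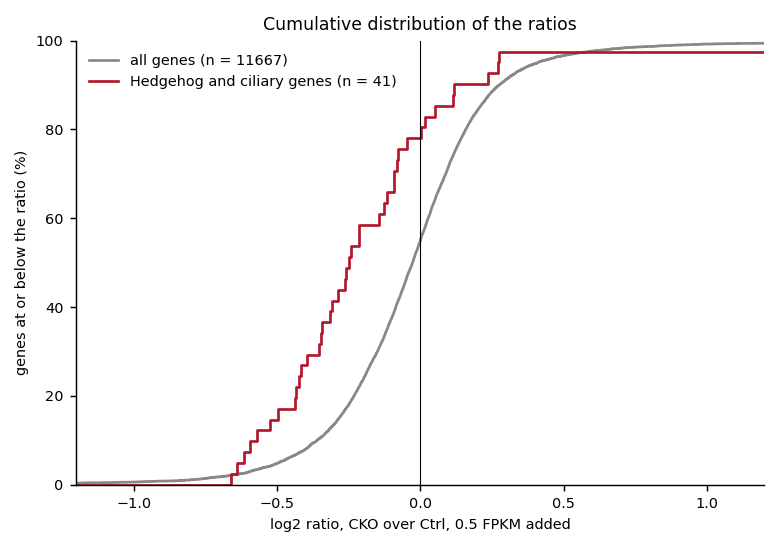
Percentage of genes at or below each log2 ratio of CKO over Ctrl, for the 41 measured Hedgehog and ciliary genes (red) and all 11667 measured genes (grey). The red curve passes 0 at 78% and the grey curve at 54.8%; Hhipl2, at 4.65, lies beyond the axis.

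Gene length moved with the ratio in these libraries, and the members were longer than other genes, with a median length of 3466.5 bases over the 50 against 2723 over all genes in the table. The median log2 ratio of all measured genes went from 0.12 for those of up to 1000 bases to -0.20 for those over 6000. Members of 2000 to 3000 bases, 12 in number, had a median of -0.29, where all genes of that length had 0.00. For those of 4000 to 6000 bases, 11 in number, the medians were -0.14 and -0.10. For 7 members of 3000 to 4000 bases both medians were -0.05. Over 6000 bases 4 members had a median of -0.41 and all genes -0.20. Up to 1000 bases the medians were -0.20 for 4 members and 0.12 for all genes. From 1000 to 2000 bases they were -0.08 for 3 members and 0.06 for all genes. Set against the median of its own length class, a comparison added with the data in view, the median difference was -0.21. By that measure 29 of 41 members (70.7%) were below their class. The class median splits all measured genes of that length evenly, so this share is not comparable with the 54.8% below 0. The ratio moved with level too. At a mean of 1 to 3 FPKM the median was -0.12 for 9 members and -0.11 for all genes. At 3 to 10 FPKM it was -0.28 for 20 members and -0.09 for all genes. At 10 to 30 FPKM it was -0.23 for 10 members and -0.03 for all genes. Over 30 FPKM it was 0.18 for 2 members and 0.04 for all genes.

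**Figure D4:**
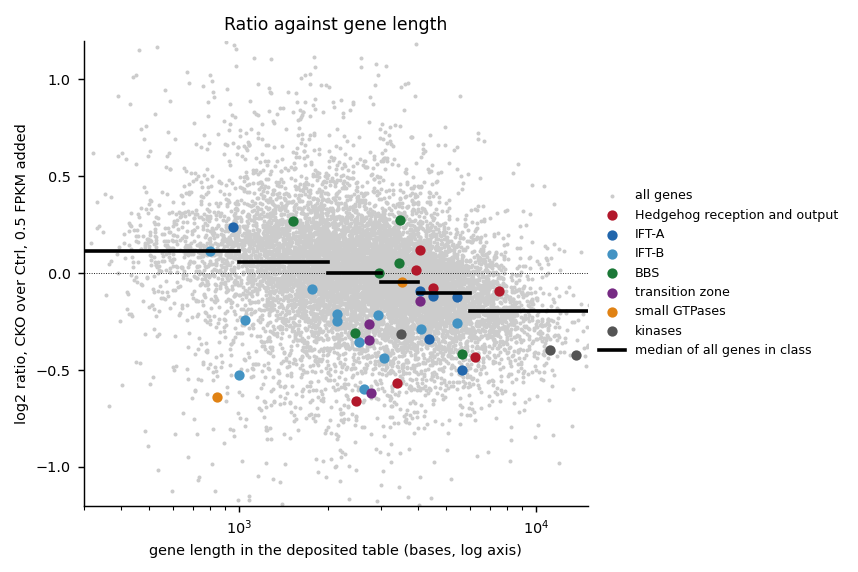
Log2 ratio of CKO over Ctrl against gene length (log axis) for all measured genes (grey) and 40 of the 41 measured Hedgehog and ciliary genes (coloured by role; Hhipl2, at 4.65, is off the axis). Black bars give the median of all genes in each length class, from 0.12 for the shortest to -0.20 for the longest.

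For most members the ratio of the FPKM columns and the read ratio implied by the authors' p-value were alike. A gap of over 0.1 in log2 was found for 7 of 41 measured members (17.1%) and for 6.99% of all genes. Those 7 were Tulp3, Hipk2 and Dyrk2, less far below 0 by reads, Gli3 farther below, and Kif7, Bbs12 and Hhipl2 less far above. By implied read ratios the median of the measured members was -0.25, and all of Gpc2, Arl3, Rpgr and Ttc30b were at or below -0.64.

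**Figure D5:**
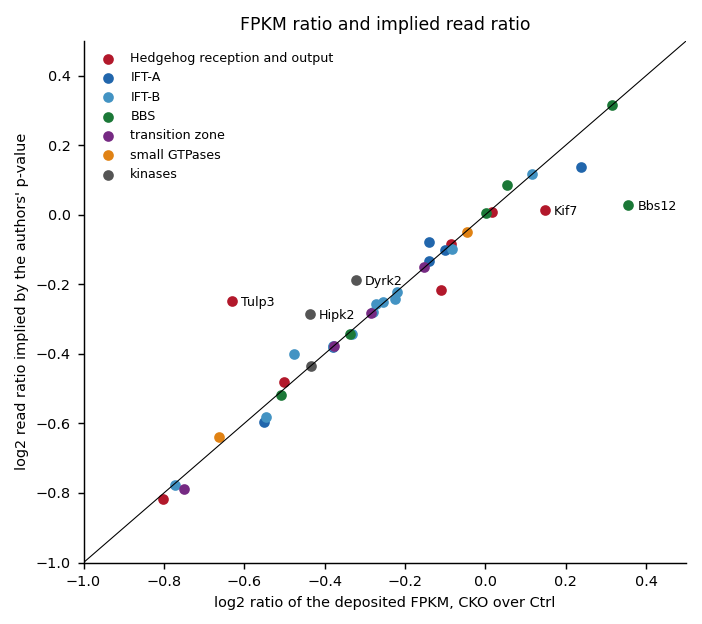
Log2 read ratio implied by the authors' p-value against the log2 ratio of the deposited FPKM for 40 measured genes, without Hhipl2 (5.21 and 5.32); the line marks equality. Tulp3 and Bbs12 lie farthest from the line.

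Other genes of the pathway were looked at through lists, counted by the same 1.5-fold rule with the same shares of all genes, 3.04% lower and 2.29% higher, and 54.8% of all measured genes were below 0. Hedgehog ligand genes, named here outside the rule for named genes, were near the floor. Ihh had 0.06 FPKM in Ctrl and 0.18 in CKO, and Dhh was at 0.02 in both. Shh is absent from the deposited table and was not assessed. Of 6 measured genes for ligand release and co-receptors 0 were called, with a median of -0.28. Their most abundant member, the glypican gene Gpc1, was at 42.44 and 42.97 FPKM, and the co-receptor gene Cdon, named after its values were seen, at 18.62 and 14.55. Of 35 measured genes of signal transduction 1 was higher, the arrestin gene Arrb2 at 2.19 and 3.62 FPKM, with a median of 0.00; Gnas, the gene of the stimulatory G protein that feeds protein kinase A, was at 462.52 and 462.14.

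Of 8 measured Hedgehog target genes outside the members, 2 were higher and 0 lower, and the median ratio was 0.33. They were the cyclin gene Ccnd1, with 11.95 FPKM in Ctrl against 19.74 in CKO, and the survival gene Bcl2, at 1.46 and 2.81. Both have many other regulators, and Ccnd1 is named in the title of the study. Sox9, the most abundant, was at 100.52 and 108.12 FPKM. For Bcl2 the deposited p-value implies a log2 read ratio of 0.45. In this list 6 genes were above 0 and 2 below. The interval lay wholly above 0 for 6 of them, and for 16.5% of all measured genes.

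Further ciliary genes lay mostly below 0 with few calls. Of 15 measured motor and IFT genes 14 were below 0 and 0 were called, with a median of -0.25; the most abundant, the nuclear import gene Tnpo1, was at 26.36 and 20.71 FPKM. Of 21 measured transition zone and nephronophthisis genes 18 were below 0 and 0 were called, with a median of -0.22, while Tmem216, the most abundant by its mean, was at 10.11 and 13.75. Genes of ciliary membrane traffic, 18 measured, had a median of -0.21 and 1 higher member, Tulp1, at 1.32 and 2.48 FPKM; the most abundant, Arl2bp, was at 29.58 and 31.67. Basal body genes, 28 measured, had a median of -0.07 and 1 lower member, the centrosomal kinase gene Nek2, at 1.95 and 1.08 FPKM; the endocytic gene Ehd1 led them at 110.18 and 111.57.

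Luminal markers had the highest sum of the marker lists, 13826.6 FPKM in Ctrl and 18556.1 in CKO, and of the 6 measured 1 was higher, Krt18, at 6606.79 and 10398.4. Krt8 was at 3871.08 and 4476.23 FPKM. Of 7 hormone-sensing luminal markers 1 was higher, Ly6a, at 138.17 and 220.18, and 1 lower, Prom1, at 48.96 and 28.63, and the median log2 ratio was -0.19. Of these 7 markers 4 were below 0 and 3 above. The progesterone receptor gene Pgr in this list was at 24.90 and 18.24 FPKM, giving -0.44 in log2. Esr1, at 24.48 and 28.28, and Cited1, at 131.87 and 148.4, went the other way. For Esr1 the deposited p-value implies a log2 read ratio of 0.03. Of 6 luminal progenitor and alveolar markers 0 were called, with sums of 1534.57 and 1609.38 FPKM. Basal myoepithelial markers were present too: 7 of 9 measured, Krt14, Acta2, Myh11, Cnn1, Tagln, Krt17 and Krt5, were higher in CKO and 1, Trp63, lower, and their summed level was 160.64 FPKM in Ctrl and 293.55 in CKO. Of the 12 listed genes of G2 and mitosis 4 were measured and 3 of them were higher, with sums of 5.23 and 13.47 FPKM. Summed fibroblast markers were at 41.89 and 44.69 FPKM with 0 of 5 called. Most of that sum was Dcn, at 25.57 and 30.74, while Pdgfra, at 1.05 and 0.31, and Lum, at 1.16 and 0.38, were below the minimum mean and lower in CKO, with intervals wholly below 0. Summed levels were, for endothelial and pericyte markers, 34.61 and 36.92 FPKM with 0 of 6 called, and for leukocyte markers 15.79 and 20.17 with 0 of 4. All 4 measured leukocyte markers had ratios above 0. The lymphocyte genes Cd3e and Nkg7 were at the floor in CKO. In Ctrl they were at 0.28 and 0.1 FPKM from 5 and 1 reads, too few for a ratio. Cd79a, at 0.49 and 0.53, and Ptprc, at 0.21 and 0.23, were also below the minimum mean. The part of these markers in the ciliary ratios was not tested.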

How the data were processed

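Sorted luminal cells gave 2 libraries, and the values start from the authors' table of 16906 genes. Per the submitters' processing notes HISAT, Bowtie2, RSEM and the mm10 build were used, without versions. The deposited expression values are FPKM: each times its gene length in kilobases adds up to 999609 (Ctrl) and 999909 (CKO). The authors' deposited log2 fold change, and the p-value and false discovery rate of their test between the 2 libraries, are quoted as theirs. Gene length is a further deposited column, an other quantity in bases.

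Read totals were estimated from the deposited p-values. Genes at the floor of 0.01 in 1 library gave whole reads within 0.01 for 237 of 237 genes, and a CKO share of 0.478. A fit to 8718 genes gave the totals, 12500000 for Ctrl and 11400000 for CKO, with a median error of 0.078 on the log10 scale. PCR copies are not independent, so the 95% intervals measure counting error alone.

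Ratios, intervals and the method of estimating reads were tested on simulated data (Python 3.11.15, SciPy 1.17.1). Alternatives were other pseudocounts, minimum levels, scalings, no division by length, and implied read ratios. The members, the lists and the rule for named genes were chosen with earlier results of these data known. The rule names all Hedgehog members, called members, and the most abundant, highest and lowest of each other group. From each pathway list it names called genes and the one with the highest mean. Further members, other pathway genes and the marker genes were named with their values in view. The values of 1 member are counted but not reported here.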

Additional observations from a re-analysis of the deposited data

How the results depend on the processing

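With 1 library per group nothing could be left out, and no paired analysis was possible because each group has 1 sample. The lower count by the 1.5-fold rule was 4, and it was 1 with 1 FPKM added, 1 with a minimum mean of 5 FPKM, and 7 in depth-scaled reads not divided by length. With no minimum level the median of the Hedgehog genes went from -0.09 to 0.017 and that of the BBS genes from 0.03 to -0.11, ligand and co-receptor genes had a median of 0 in place of -0.28, and 1 motile cilium gene was higher in place of 0. Centred on all genes, the median of signal transduction genes was 0.026 in place of 0.00. Of 246 single-gene alternatives 243 moved the ratio by no more than 0.5 of the width of the gene's interval; the exceptions were the implied read ratios of Tulp3, Hipk2 and Dyrk2. The cause was not tested. Depth limits Gli1 and Hhip, with at most 10 reads.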

Other observations

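Genes of motile cilia, which luminal cells are not known to build, spanned a wide range. It ran from the floor to Rfx1 at 25 FPKM in Ctrl and Rsph9, a radial spoke gene, at 12.45. Of the 12 measured 9 (75%) lay below 0 and 3 above, where 54.8% of all measured genes were below 0. Of 12 measured genes 2 were lower and 0 higher by the 1.5-fold rule, with a median of -0.14. They were Foxj1, the regulator of motile ciliogenesis, with 6.20 FPKM in Ctrl against 3.36 in CKO from 201 and 100 reads, and Rsph1, a radial spoke gene, at 2.10 and 0.76 from 31 and 10 reads. Another radial spoke gene, Rsph4a, was picked with its values in view: 0.90 FPKM against 0.22, or -0.96 in log2 (-3.29 to -0.997 without the added 0.5 FPKM). Spag6 went the other way, from the floor in Ctrl to 0.32 FPKM in CKO, or 0 and 6 reads. Both genes were below the minimum mean. Dnaic1, measured, was at 1.85 and 2.58 FPKM, with an interval that held 0. The RFX factor genes in the list, named with Rsph9 after their values were seen, were at 25 and 23.75 FPKM for Rfx1, 8.45 and 9.06 for Rfx2, and 5.80 and 4.67 for Rfx3. Only the interval of Rfx3 (-0.49 to -0.14) excluded 0 among these 3. The axonemal genes Dnah9 and Hydin were at the floor in both libraries.

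The neighbours of Hhipl2 had log2 ratios from -0.22 to 0.23, beside 4.65 for Hhipl2 itself. Within 500000 bases of its annotated span, a window chosen after the data were seen, lay 6 genes with deposited values. By the 1.5-fold rule 0 of them were called, where 3.04% of all measured genes were lower and 2.29% higher. With shares that small, a count of 0 says little about 6 genes. Taf1a, whose span ends 4262 bases away, had 10.65 FPKM in Ctrl against 9.71 in CKO, a log2 ratio of -0.13 (-0.37 to 0.11). The others were Mia3 at -0.22, Aida at 0.04, Brox at 0.03, Disp1 at 0.22 and Tlr5 at 0.23. Disp1, which encodes the protein that releases Hedgehog ligands from the cell, was at 0.46 and 0.62 FPKM. It was below the minimum mean, so the rule could not call it.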
